A study of Homo sapiens with 6 samples.

Results

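Glycolytic enzyme genes were followed in HT-29, a long-established line of human colorectal cancer cells, with and without depletion of OGT, the enzyme that attaches O-linked N-acetylglucosamine to nuclear and cytoplasmic proteins. The 8 genes were taken by name from the 5681 genes of the deposited table, 4 for upper steps of glycolysis (GPI, PFKM, PFKL and ALDOC) and 4 for lower steps (ENO2, ENO3, PKM and LDHC). RNA-seq libraries came from cells infected with a Scramble hairpin (libraries 1, 2 and 3, genotype labelled WT) and from cells infected with a hairpin against OGT (shOGT, libraries 4, 5 and 6, genotype labelled OGT knock down). All 6 libraries carry the same treatment label, colorectal tumor growth, and the cells were grown in Dulbecco's medium with fetal bovine serum. The sources do not say which OGT hairpin was sequenced, or whether the 3 shOGT libraries share the same hairpin. The labels give a single knockdown condition, so hairpins cannot be compared. No label ties the 3 libraries of a group to separate cultures. The p-values given here therefore measure the spread between these libraries, which may be technical.

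Glycolysis splits glucose into pyruvate in the cytosol. In the upper steps, ATP is spent to turn glucose-6-phosphate into a bisphosphate sugar that aldolase cleaves into trioses, and phosphofructokinase is the committed step. In the lower steps the trioses are oxidized and ATP is regained through enolase and pyruvate kinase, after which lactate dehydrogenase can reduce pyruvate to lactate. Most steps can be carried out by several isoenzymes from separate genes, and cancer cells are known for a high flux of glucose to lactate even when oxygen is present.

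The measure was the normalized count, the number of reads on a gene divided by a size factor for the library, without division by gene length. Scramble libraries had size factors of 1.09 to 1.13 and held 4145921 to 4504303 reads on listed genes, and shOGT libraries had size factors of 0.879 to 0.9501 and held 3302558 to 3471647 reads. OGT itself (ENSG00000147162) retained 4.99% of its Scramble level, with 9628, 11638 and 11619 normalized counts in Scramble and 484, 621 and 537 in shOGT, as their labels have it. The table holds only genes that its authors list past a 2-fold change and an adjusted p of 0.05. Of the 5671 genes tested here, 99.4% were called, meaning an absolute log2 fold change over 1 and a Benjamini-Hochberg adjusted p under 0.05 from limma. Genes called lower in shOGT made up 47.2% and genes called higher 52.2%, so that a call alone says little about any listed gene. The same 6 libraries decided which genes are listed. The adjusted p-values and intervals given below for listed genes follow that choice, and they are no independent test of a change. In bulk RNA, fewer cells of a type and less RNA per cell cannot be told apart.

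All 4 upper-step genes were called lower in shOGT, and ENO2, ENO3 and PKM of the lower-step genes were called higher. LDHC was also higher, but it entered the fit only through its shOGT libraries and is described apart, by its reads. GPI, PFKM, PFKL and ALDOC retained 26.4% to 37.4% of their Scramble means, with a median log2 fold change of −1.59, against a median of −1.54 over all lower genes of the table. Without LDHC, the 3 lower-step genes had a median of 1.07, against 1.88 over all higher genes, and ran from 1.02 for ENO2 to 2.42 for ENO3. With 99.4% of tested genes called, the count of called members is at the background of the table and is not a result about the members. The groups did not overlap for any of the 8 genes, as was so for 99.5% of the genes tested.

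**Figure D1:**
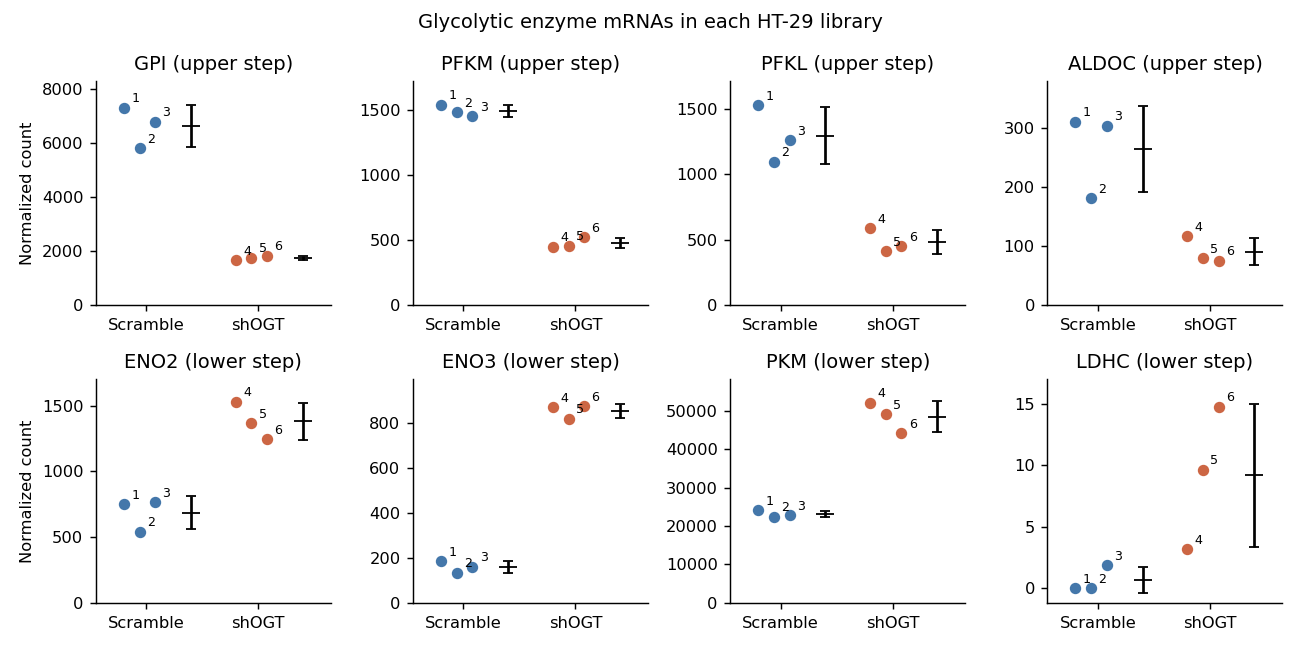
Normalized counts (y axis, linear, a separate scale for each gene) of the 8 glycolytic enzyme genes in Scramble libraries 1 to 3 (blue) and shOGT libraries 4 to 6 (red), with the mean and SD of 3 libraries in black. The upper row (GPI, PFKM, PFKL, ALDOC) is lower in shOGT and the lower row (ENO2, ENO3, PKM, LDHC) is higher, and LDHC reaches only 14.8.

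Short stretches before RefSeq starts are shown for members that moved in opposite directions. The letters known to be bound by factors of glycolytic genes occur on both sides. The 250 bases before each RefSeq start (GRCh38.p14) were searched on both strands for CACGTG, the E-box of the Myc and Max family, ACGTG, the core of the hypoxia response element, which lies within every E-box, and GGGCGG, the GC box of the Sp family. Of 35116 such windows, 6.34% hold an E-box, 18.5% the ACGTG core and 42.6% a GC box. All 250 bases of the windows of GPI, ALDOC, ENO2 and PKM lie within annotated exons of the same gene, against 2 bases for PFKL. The stretches printed for those genes other than PFKL are thus annotated exon sequence, and not only upstream DNA. In the lines below, the matched letters are in capitals and positions are counted back from the RefSeq start. Among the upper-step genes, ALDOC has the only E-box and GPI an ACGTG core.
ALDOC, chr17:28577116-28577145, minus strand, positions −250 to −221: aagtgcccggCACGTGgtaaagggattgtg
GPI, chr19:34364818-34364847, plus strand, positions −174 to −145: acactgcctgtaACGTGgaaggtgttcgat
ENO2, chr12:6914450-6914479, plus strand, positions −130 to −101: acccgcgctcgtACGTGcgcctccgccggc
PKM, chr15:72231238-72231267, minus strand, positions −77 to −48: tgggcagaGGGCGGGGCGGcggagggattg

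The same core thus stands in GPI and ALDOC, which were lower, and in ENO2 and LDHC, which were higher. GC boxes also fall on both sides. PKM has 3, of which the pair printed above overlaps, and PFKL has 7, most of them within the last 60 bases before its start. The PFKL window is shown because it is the densest of the set, on the plus strand from position −250 to −3.
PFKL, chr21:44299803-44300050: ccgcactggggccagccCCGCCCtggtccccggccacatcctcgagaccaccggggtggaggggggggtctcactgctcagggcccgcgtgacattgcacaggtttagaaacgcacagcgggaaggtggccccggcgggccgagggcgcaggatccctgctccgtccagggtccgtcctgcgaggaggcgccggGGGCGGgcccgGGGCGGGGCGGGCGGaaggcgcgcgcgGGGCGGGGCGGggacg
ALDOC and ENO2 have 2 GC boxes each and LDHC has 1. The 2 windows of ENO3 hold none of the 3 motifs searched for. Of the 7 windows of PFKM, several of which overlap, 1 holds the ACGTG core and 3 hold a GC box. These are matches of letters and not measured binding sites.

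GPI (ENSG00000105220, chromosome 19, 34359480 to 34402413, plus strand, GRCh38) encodes glucose-6-phosphate isomerase, which makes fructose-6-phosphate. It had 7301, 5801 and 6787 normalized counts in Scramble libraries 1, 2 and 3 and 1674, 1757 and 1825 in shOGT libraries 4, 5 and 6. The lowest Scramble library was more than 3 times the highest shOGT library. The means were 6630 ± 763 and 1752 ± 75.6 (SD over 3 libraries), which is a log2 fold change of −1.91 with a 95% interval of −2.12 to −1.71 (standard error 0.09, adjusted p = 3.14e-10 from limma). Among lower genes of the table, 30.1% had a larger absolute log2 fold change. GPI shares 5.07% of its exon bases with AC092073.1 on the same strand, a gene not among those of the table. Of the 75-base stretches of its longest coding transcript, 10.1% also occur in transcripts of other genes, 21 in all.

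Phosphofructokinase is built from the muscle, liver and platelet subunits PFKM, PFKL and PFKP. PFKP is not among the genes of the table. PFKM (ENSG00000152556, chromosome 12, 48105139 to 48146404, plus strand) had 1541, 1485 and 1454 normalized counts in Scramble and 452, 457 and 521 in shOGT. Its libraries lay close together in both groups, with a coefficient of variation of 2.97% in Scramble and 8.12% in shOGT. The log2 fold change was −1.65 with a 95% interval of −1.85 to −1.44 (standard error 0.10, adjusted p = 1.23e-09 from limma), with means of 1493 ± 44.4 and 477 ± 38.7 (SD over 3 libraries). PFKL (ENSG00000141959, chromosome 21, 44300051 to 44327376, plus strand) had 1526, 1093 and 1259 normalized counts in Scramble and 587, 412 and 451 in shOGT. Libraries 1 and 4 were the highest of their groups, and the spread was wider than for PFKM, at 16.9% and 19.0%. The means were 1293 ± 219 in Scramble and 483 ± 92.0 in shOGT (SD over 3 libraries), giving PFKL a log2 fold change of −1.42 with a 95% interval of −1.73 to −1.11 (standard error 0.14, adjusted p = 2.98e-07 from limma). Added together, the counts of both subunits went from 2786 ± 253 to 960.2 ± 85.2, which is 34.5% of the Scramble level.

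Whether the paralogs can be told apart by their reads was looked at in the coding sequences, since shared stretches would let 1 read fit both genes. The longest run of identical bases common to the longest coding transcripts of PFKM and PFKL is 26 bases, and that of the enolases ENO2 and ENO3 is 29 bases. Against paralogs not among the genes of the table, the longest run is 44 bases for ALDOC and ALDOA and 22 bases for LDHC and LDHA. The labels give reads of 150 bases, longer than any of these runs.
PFKM and PFKL: accactgcccagagccaccagaggac
ENO2 and ENO3: tccaagtttggggccaatgccatcctggg
Other genes overlap some members. Antisense to PFKM, SENP1 takes in 8.58% of its exon bases. AC005726.4 is antisense to 10.1% of those of ALDOC, and PFN1 to 2.59% of those of ENO3. None of these is among the genes of the table. The labels describe a strand-marking protocol, but the sources do not say whether strand was used in counting, so reads from such overlaps may be included in the counts.

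ALDOC (ENSG00000109107, chromosome 17, 28573115 to 28577264, minus strand) encodes the brain-type aldolase, which cleaves fructose-1,6-bisphosphate. The Scramble libraries gave 310.4, 181 and 304 normalized counts and the shOGT libraries 117, 79.3 and 75.1. Scramble library 2 was well below the other Scramble libraries and still above every shOGT library. With means of 265 ± 72.8 and 90.4 ± 23.0 (SD over 3 libraries), ALDOC had a log2 fold change of −1.53 with a 95% interval of −2.02 to −1.04 (standard error 0.23, adjusted p = 1.87e-05 from limma). The triose phosphate isomerase gene TPI1 is not among the genes of the table.

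The call of the upper-step genes depended on the scaling of the libraries. After a median-of-ratios rescaling on the listed genes, log2 fold changes rose by a median of 0.71 across genes, and only GPI at −1.20 of the 4 upper-step genes still passed a 2-fold change. PFKM was then at −0.93, PFKL at −0.70 and ALDOC at −0.82. All 4 kept their direction, and PKM at 1.78, ENO2 at 1.74 and ENO3 at 3.13 were further above 0. The rescaling moved the share of higher genes among those called from 52.5% to 73.2%. Its medians were taken only over listed genes above 0 in all 6 libraries, and it assumes that those genes are balanced in direction. Genes at 0 in any library were left out, and such genes were more frequent in Scramble. Before rescaling, the median log2 fold change over all genes tested was 1.05. The upward shift thus belongs to that choice of genes, and the table holds only genes chosen for their change.

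**Figure D2:**
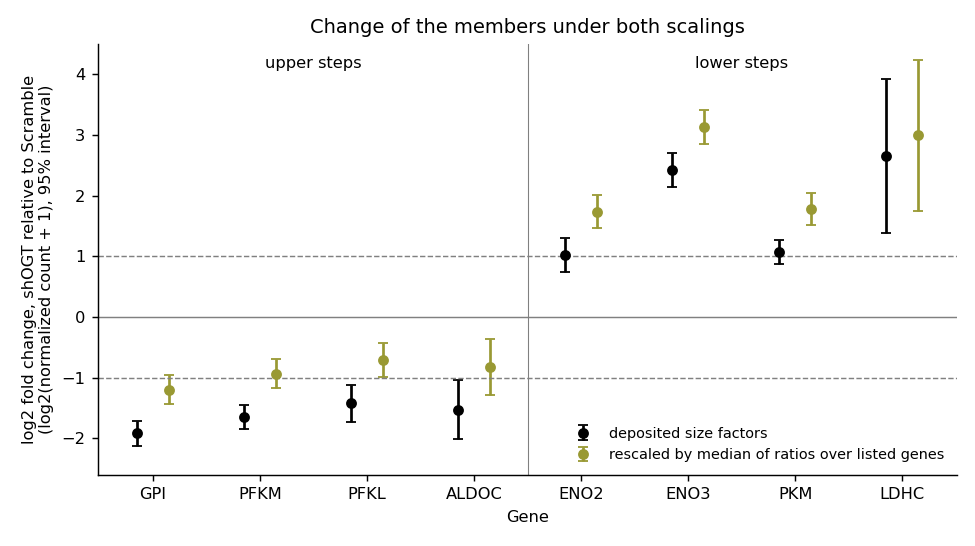
Log2 fold changes of shOGT relative to Scramble on log2(normalized count + 1) (y axis) for the 8 enzyme genes (x axis), with 95% intervals from limma. Black marks the deposited size factors, and olive the median-of-ratios rescaling on listed genes above 0 in every library. Dashed lines mark a 2-fold change, which GPI passes under both scalings and PFKM, PFKL and ALDOC pass only under the deposited size factors. The LDHC interval is no test, because the gene passed the filter only through its shOGT libraries.

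Enolase makes phosphoenolpyruvate, and its genes ENO2 and ENO3 are best known from neurons and muscle. ENO2 (ENSG00000111674, chromosome 12, 6913745 to 6923698, plus strand) was at 752, 541 and 765 normalized counts in Scramble libraries and at 1529, 1366 and 1245 in shOGT libraries. Every shOGT library was above every Scramble library, and library 2 was the lowest of all. ENO2 rose from 686 ± 126 to 1380.1 ± 143 (SD over 3 libraries), so that its log2 fold change was 1.02 with a 95% interval of 0.74 to 1.301 (standard error 0.13, adjusted p = 4.00e-06 from limma). It was just past the 2-fold limit, and 97.7% of the higher genes had a larger change. Without Scramble library 2 the value was 0.86 and without shOGT library 4 it was 0.94, both under a 2-fold change.

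ENO3 (ENSG00000108515, chromosome 17, 4948092 to 4957131, plus strand) had 186, 134 and 160.1 normalized counts in Scramble and 870.5, 818 and 874 in shOGT. Its shOGT libraries lay within a narrow band, at a coefficient of variation of 3.66%, far above Scramble. The change from 160.2 ± 26.0 to 854 ± 31.2 (SD over 3 libraries) was 5.33-fold, or a log2 fold change of 2.42 with a 95% interval of 2.14 to 2.70 (standard error 0.13, adjusted p = 6.62e-10 from limma). Of the higher genes, 28.1% had a larger change. ENO2 and ENO3 together went from 846 ± 148 to 2234 ± 147 normalized counts, or 264% of the Scramble level. ENO1, the widely expressed enolase, is not among the genes of the table, so the total enolase mRNA was not analysed here.

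PKM (ENSG00000067225, chromosome 15, 72199029 to 72231822, minus strand) encodes the pyruvate kinases M1 and M2, which differ by a pair of mutually exclusive exons and transfer the phosphate of phosphoenolpyruvate to ADP. PKM had 24069, 22419 and 22874 normalized counts in Scramble and 52116, 49150 and 44208 in shOGT. Per kilobase of exon it was the most abundant of the 8 mRNAs in every library. The means of 23121 ± 852 and 48492 ± 3995 (SD over 3 libraries) gave a log2 fold change of 1.07 with a 95% interval of 0.87 to 1.26 (standard error 0.09, adjusted p = 6.32e-08 from limma). Leaving out any 1 library kept PKM between 1.01 and 1.13. The table counts the gene as a whole, so M1 and M2 were not told apart. PKLR, the liver and red cell pyruvate kinase gene, is not among the genes of the table.

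LDHC (ENSG00000166796, chromosome 11, 18412307 to 18452058, plus strand) encodes the lactate dehydrogenase subunit known from testis. It had 0, 0 and 2 reads in Scramble and 3, 9 and 13 in shOGT, or 0, 0 and 1.84 against 3.16, 9.64 and 14.8 normalized counts. At this depth the gene was barely detected in Scramble and low in shOGT, and it passed the filter on low values only through its shOGT libraries. With 2 against 25 reads in all, the ratio per size factor was 15.0 with an exact 95% interval of 3.75 to 131, which covers counting error only. On the log2 scale the fitted difference was 2.65 with a pseudocount of 1, 4.86 with 0.1 and 1.26 with 5, and no p is given because the filter let the gene through only where it was high. The same count of few reads held for the related genes LDHAL6A, 3765 bases past the end of LDHC, and LDHAL6B on chromosome 15. LDHAL6A had 0, 3 and 2 reads in Scramble and 14, 10 and 16 in shOGT, a ratio of 9.63 with an exact interval of 3.80 to 31.3. LDHAL6B had 0, 3 and 0 reads against 10, 3 and 12, a ratio of 10.03 with an exact interval of 3.06 to 51.9. LDHA and LDHB, which make the abundant lactate dehydrogenase of most tissues, are not among the genes of the table.

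The balance between steps was compared as the ratio of 2 genes' normalized counts within each library, which does not depend on the size factor. The ratios of PKM to the upper-step genes are a description with no test, because every gene of the table was listed for a change past 2-fold and PKM was listed as higher and the others as lower, which alone sets these ratios apart. PKM over GPI was 3.30, 3.86 and 3.37 in Scramble and 31.1, 27.98 and 24.2 in shOGT. These groups were far apart, with a difference of 2.98 on the log2 scale (standard error 0.13), or 7.89-fold. PKM over PFKM was 15.6, 15.1 and 15.7 against 115, 107 and 84.8, a 6.57-fold difference. PKM over PFKL was 15.8, 20.5 and 18.2 against 88.7, 119 and 98.1, a 5.61-fold difference. The sizes of these differences do not depend on the scaling of the libraries.

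Within a step, both genes of a pair were listed in the same direction, and the log2 ratios of 3 pairs were compared by exact permutation, two-sided, whose smallest possible p with 20 splits is 0.1. Adjusted values are over these 3 pairs. PFKM over PFKL was 1.01, 1.36 and 1.155 in Scramble and 0.769, 1.11 and 1.16 in shOGT, with overlapping groups and a log2 difference of −0.23 (standard error 0.22, exact permutation p = 0.5, adjusted 0.5). Leaving out 1 library moved this difference between −0.34 and −0.04, so a difference between the falls of the subunits was not detectable in 3 libraries against 3. ALDOC over GPI was 0.0425, 0.0312 and 0.0447 against 0.0698, 0.0451 and 0.0412, also overlapping, with a log2 difference of 0.38 (standard error 0.29, exact permutation p = 0.4, adjusted 0.5). ENO2 over ENO3 did not overlap, at 4.04, 4.03 and 4.78 in Scramble and 1.76, 1.67 and 1.42 in shOGT. Its log2 difference was −1.41 (standard error 0.12, exact permutation p = 0.1, adjusted 0.3), which is 2.65-fold lower in shOGT.

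**Figure D3:**
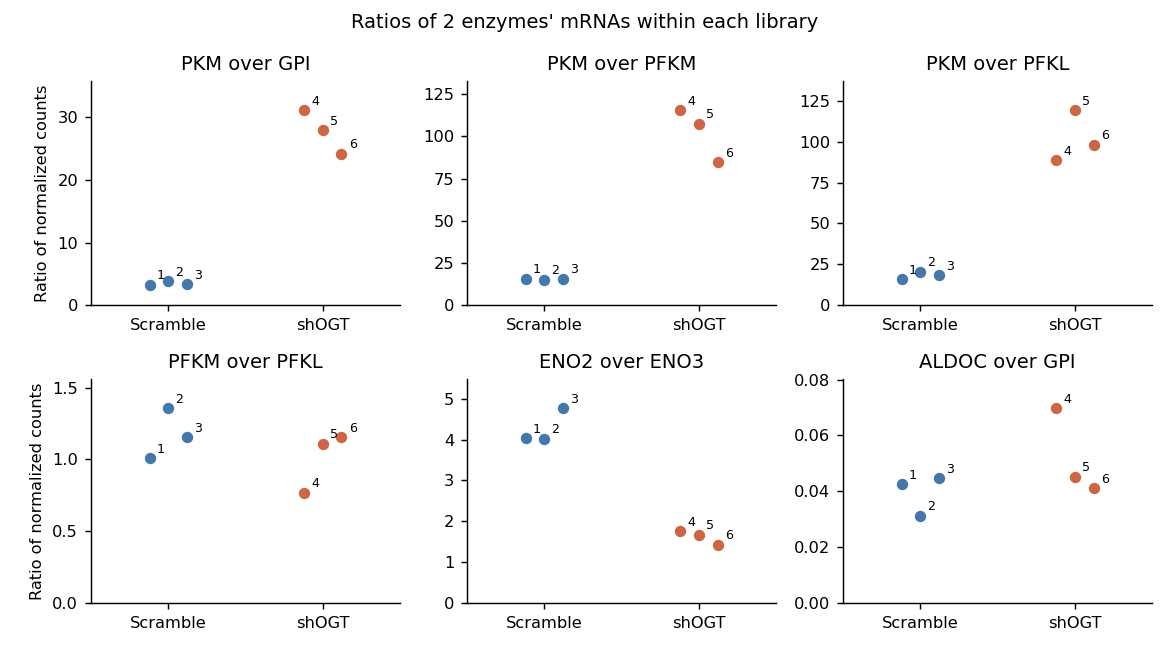
Ratios of the normalized counts of 2 enzyme genes within each library (y axis, linear from 0, a separate scale for each pair) in Scramble libraries 1 to 3 (blue) and shOGT libraries 4 to 6 (red). PKM over GPI, PFKM and PFKL is higher in every shOGT library, ENO2 over ENO3 is lower in every one, and PFKM over PFKL and ALDOC over GPI overlap.

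Levels of different genes were compared as normalized counts per kilobase of exon, using the exon bases that the table gives for each gene. In Scramble the order of mean levels was PKM at 2698 per kilobase, GPI at 621, PFKM at 204, ENO2 at 160, PFKL at 145, ALDOC at 90.5, ENO3 at 37.3 and LDHC at 0.293. The levels of ENO2, from 126 to 179, and of PFKL, from 122 to 171, overlapped, whereas PFKM, from 199 to 211, lay above both. In shOGT the order was PKM at 5658, ENO2 at 322, ENO3 at 199, GPI at 164, PFKM at 65.1, PFKL at 54.2, ALDOC at 30.9 and LDHC at 4.39. Both enolase genes thus stood above GPI in shOGT, where their ranges did not overlap with that of GPI, and PFKM and PFKL overlapped. The order of close neighbours depends on the length used. With the length of the longest coding transcript, the mean of ENO3 stood above that of ENO2 in shOGT, at 562 against 488 per kilobase. The mean of PFKL stood above that of PFKM, at 166 against 151. Both pairs overlapped, with ENO3 from 538 to 575 and ENO2 from 440 to 541, and PFKL from 142 to 202 and PFKM from 143 to 165. By this length PFKM in Scramble, from 459 to 487, lay within the range of PFKL, from 375 to 524. ENO2 made up 81.0% ± 1.47 of the sum of ENO2 and ENO3 per kilobase in Scramble and 61.7% ± 2.59 in shOGT (SD, n = 3 each), or 69.6% ± 2.04 and 46.4% ± 2.71 by transcript length. PFKM made up 58.7% ± 3.59 of the sum of PFKM and PFKL in Scramble and 54.8% ± 5.57 in shOGT, or 51.7% ± 3.70 and 47.8% ± 5.57 by transcript length.

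The libraries of a group were not evenly placed across the members. Scramble library 2 was the lowest of its group for GPI, PFKL, ALDOC, ENO2, ENO3 and PKM, 6 of the 8 genes, whereas it was the lowest for 31.1% of all genes. Scramble library 1 was the highest for GPI, PFKM, PFKL, ALDOC, ENO3 and PKM, against 42.8% of all genes. In shOGT no library led the members in this way, with library 4 the highest for PFKL, ALDOC, ENO2 and PKM and library 6 the highest for GPI, PFKM, ENO3 and LDHC. Library 2 was thus low for upper-step and lower-step genes alike, and without it the ALDOC log2 fold change was −1.78 and that of ENO2 was 0.86.

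The rest of the pathway was described through 7 lists of 72 genes, of which 25 are in the table, 17 of them besides the 8 members. All 17 were called, 5 higher and 12 lower, beside 99.4% of all genes tested. Of the 26 enzymes from GPI to lactate dehydrogenase, 10 are in the table. The 4 of the upper list, all members, were lower, and the 6 of the lower list, the 4 members with LDHAL6A and LDHAL6B, were higher. LDHC, LDHAL6A and LDHAL6B have few reads and values that depend on the pseudocount, and the other 3 had a median log2 fold change of 1.07. The other 16 enzymes, among them GAPDH, PGK1 and ENO1, were not analysed here, so the direction of a whole step cannot be read from these counts.

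Glucose entry was represented by 2 of 13 genes. SLC5A1, the sodium-coupled glucose transporter of the intestine, fell from 368 ± 42.7 to 84.9 ± 10.4 normalized counts (log2 fold change −2.10), and GCKR, the regulatory protein of glucokinase, rose from 26.1 ± 6.11 to 58.8 ± 7.48 (1.16). GCKR was at 0.99, under a 2-fold change, without Scramble library 3. Among regulators, 3 of 8 were listed. PFKFB3 and PFKFB4 make fructose-2,6-bisphosphate, the activator of phosphofructokinase. PFKFB3 fell from 864 ± 92.0 to 414 ± 19.5 (log2 fold change −1.05) and PFKFB4 from 289 ± 98.6 to 78.7 ± 16.3 (−1.82), in the same direction as PFKM and PFKL. PFKFB3 was at −0.99 without Scramble library 1 and at −0.34 after rescaling. BPGM, which makes 2,3-bisphosphoglycerate from a lower-step intermediate, rose from 110 ± 15.0 to 268 ± 14.9 (1.29).

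Of 7 carriers of lactate and pyruvate, 3 were listed. BSG, the chaperone that brings monocarboxylate transporters to the membrane, fell from 6353 ± 644 to 2298 ± 284 normalized counts (log2 fold change −1.47, and −0.75 after rescaling). SLC16A8 fell from 67.7 ± 6.27 to 18.6 ± 10.5 (−1.97), and SLC16A7, the monocarboxylate transporter 2 gene, rose from 666 ± 81.9 to 1602 ± 276 (1.26). The main lactate exporters SLC16A1 and SLC16A3 are not among the genes of the table.

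Of 12 transcription factors known for glycolytic genes, 5 were listed and all 5 were called lower, beside 47.2% of all genes tested, in a table of genes chosen for their change. MYC fell from 4796 ± 313 to 2295 ± 349.5 normalized counts (log2 fold change −1.07), and MNT, a repressor of the Max network, from 540 ± 17.6 to 195 ± 27.2 (−1.47). EPAS1, which encodes HIF-2 alpha, was at −1.34, ARNT, its partner, at −1.40, and SP1 at −1.44. These are the mRNAs of the factors whose letters are printed above, and whether they bind those stretches in these cells was not tested. MYC was at −0.97 without shOGT library 5, and after rescaling all 5 kept their direction and were under a 2-fold change, from −0.35 for MYC to −0.76 for MNT. Of 6 factors known for the choice between the M1 and M2 exons of PKM, HNRNPA1 fell from 13987 ± 631 to 5035 ± 647 (−1.48) and NEK2, a mitotic kinase, from 702 ± 20.2 to 324 ± 27.4 (−1.12). After rescaling HNRNPA1 was at −0.76 and NEK2 at −0.40, both under a 2-fold change. HNRNPA1 has many processed pseudogenes, so part of its count is uncertain.

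**Figure D4:**
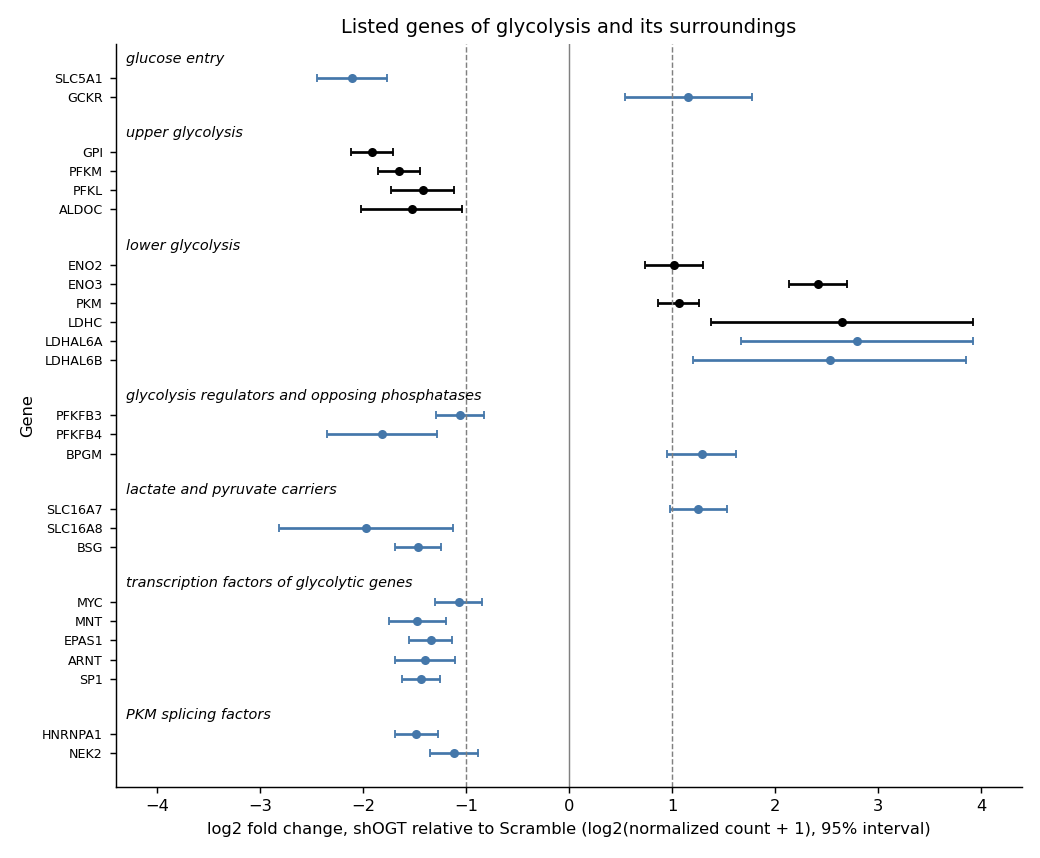
Log2 fold changes of shOGT relative to Scramble on log2(normalized count + 1) (x axis) with 95% intervals from limma for the 25 listed genes of 7 lists (y axis), the 8 members in black and the other 17 in blue. The upper glycolysis genes lie left of 0 and the lower glycolysis genes right of it, with transcription factors and PKM splicing factors left of it. Dashed lines mark a 2-fold change under the deposited size factors, which most of the lower genes no longer pass after rescaling. The intervals of LDHC, LDHAL6A and LDHAL6B are no test, because these genes passed the filter only through their shOGT libraries.

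Since ENO2, ENO3 and LDHC are best known from other tissues, markers of those tissues were examined. Of 14 neuron or neuroendocrine markers, 0 are in the table. Of 14 muscle markers, TTN and TNNC1 are listed, with a summed level of 11.96 to 24.3 normalized counts in Scramble and 46.1 to 67.2 in shOGT. Of 14 testis germ cell markers, DDX4 and LDHAL6B are listed, with sums of 0 to 5.41 in Scramble and 17.1 to 30.7 in shOGT. Of 13 markers of fibroblasts, endothelium or blood, PECAM1 alone is listed, at 42.3 to 51.4 against 129 to 199.99. LDHAL6B is itself one of the lactate dehydrogenase genes described above, so it is no separate marker for them. Like LDHC, it and DDX4 passed the filter on low values only through their shOGT libraries. All of these markers were higher in shOGT at low levels, in a table where 52.2% of genes tested were called higher. Their part in the higher values of the enolase and lactate dehydrogenase genes was not tested. Of 14 markers of colon epithelium, 5 are listed, with a summed level of 9062 to 10932 in Scramble and 18490 to 20474 in shOGT. They moved both ways, with KRT20 at a log2 fold change of 2.69, KRT19 at 1.39 and CDH17 at 1.34, and with LGALS4 at −1.97 and VIL1 at −1.12. The number of genes at 0 reads also differed between the groups, with 413 to 449 such genes per Scramble library and 69 to 99 per shOGT library, and its part in the low-count LDHC result was not tested.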

How the data were processed

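The authors deposited 1 table of normalized counts (a signal, counts divided by a size factor per library) for 5681 genes and 6 libraries, matched to the labels by library number. The submitters' processing notes name cutadapt 1.9, HISAT2 2.0.4, UMI-tools, StringTie 1.3.4d, DESeq2 and edgeR, and the build mm8, a mouse build. The table's gene identifiers are all in GENCODE 29 (GRCh38), 5680 with the same position. Labels describe oligo(dT) capture and dUTP strands, the methods an Agilent strand-specific kit. The authors' group means, fold changes and p-values were used only to test how the table was restricted: 0 genes were below a log2 fold change of 1 and 0 at an adjusted p of 0.05 or above. Whole reads were recovered for 100% of values (tolerance 0.02).

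limma 3.58.1 (R 4.3.3, trend) was fitted to log2(normalized count + 1) over all 6 libraries, with group as the only term, for genes at 1 or more in at least 3 libraries, with Benjamini-Hochberg adjustment over all genes tested. The code of the fits was run on simulated counts in which only some genes were changed and the size factors were known. Nearly every gene of the table was called, so that run does not measure the accuracy of the fits here. Named genes were the 8 members, OGT, every gene of the lists that is in the table, and for each member the 2 genes with the highest correlation among genes with a mean of at least 100 normalized counts. AC092073.1, SENP1, AC005726.4 and PFN1 were named for overlapping a member, and the listed marker genes for the check of tissues. Members and lists were chosen with earlier results of these data known. Alternatives were rescaling, TMM, pseudocounts of 0.1 and 5, other filters, an ordinary linear model, edgeR 4.0.16 and DESeq2 1.42.0 on recovered reads, and leaving out each library. The exon bases per gene, a deposited value of another kind, scaled levels per kilobase. Other genes were not analysed here.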

Additional observations from a re-analysis of the deposited data

How the results depend on the processing

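Across the alternatives, 372 of 389 recomputed log2 fold changes kept their direction and their side of the threshold, 17 kept their direction and lost a 2-fold change, and all 42 log2 ratios kept their direction. Of 83 recomputed counts, 80 were within 1.5 times the reported count and 3 were not. Genes called went from 5636 to 4070 after rescaling. Lower-step members called higher went from 4 to 3 under a minimum mean of 5, where LDHC was not fitted. They also went to 3 without Scramble library 2 or without shOGT library 4, where ENO2 fell under a 2-fold change. These counts include LDHC wherever it was fitted. They say nothing of how stable LDHC is, because it passed the filter only through its shOGT libraries. Median-of-ratios rescaling on the listed genes left 1090 genes called lower in place of 2677, 1 upper-step member called lower (GPI) in place of 4 and 4 listed pathway genes called lower, and put PFKM at −0.93, PFKL at −0.70 and ALDOC at −0.82. These changes follow from a shift of log2 fold changes up by a median of 0.71. That shift was set by the listed genes above 0 in all 6 libraries, on which the rescaling was computed. Scaling by TMM shifted the median by −0.01. edgeR called 5666 genes and DESeq2 5668 on the recovered reads, beside 5636 from limma.

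Leaving out 1 library at a time gave 5403 to 5543 genes called, 2857 to 2897 higher and 2543 to 2652 lower. In these fits 4 upper-step members were called lower and 3 to 4 lower-step members higher, with LDHC counted among the latter. GPI ran from −2.01 to −1.84, PFKM from −1.71 to −1.61, PFKL from −1.57 to −1.29, ALDOC from −1.78 to −1.39, ENO2 from 0.86 to 1.11, ENO3 from 2.30 to 2.53, PKM from 1.01 to 1.13 and LDHC from 2.23 to 3.19. ENO2 fell under a 2-fold change without Scramble library 2 or shOGT library 4. The fitted value for LDHC was 3.67 from edgeR and 3.92 from DESeq2, and the gene was not fitted under a minimum mean of 5. No paired analysis was possible because the groups share no replicate number in the labels. Depth limits LDHC and its relatives, with at most 16 reads in a library, and 3 libraries a group limit the exact tests to p = 0.1.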

Other observations

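For each member, the genes with the most similar pattern were sought by Pearson correlation of log2(normalized count + 1) over the 6 libraries, among 2907 genes (2908 for LDHC) with a mean of at least 100 normalized counts. With 3 libraries a group and nearly every listed gene separating the groups, such correlations are high for many genes, and they are given as a description. GPI was closest to COQ5 (r = 0.999) and MARCKS (r = 0.998), and 429 genes had an r over 0.99 with it. PFKM was closest to CTDSP2 and TEAD2, with 576 genes over 0.99, and ENO3 to FOSL2 and MMP24, with 210. PFKL was closest to BAIAP2-DT and ATG4D, with 87 genes over 0.99, and PKM to PHTF1 and HCFC1, with 136. The other 3 members had few such genes or none. ENO2 had 4, led by MYH7B (r = 0.994) and AC007785.1 (r = 0.992). ALDOC had 0 and was closest to MOSPD3 (r = 0.983) and COQ8A (r = 0.982), and LDHC had 0 and was closest to PLCB4 (r = 0.982) and ANKRD36C (r = 0.978).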
